A study of Mus musculus with 9 samples.

Results

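Macrophages rid themselves of drugs, bile pigments and glutathione conjugates through ATP-driven pumps in the plasma membrane. The transcripts of 7 such efflux transporters were followed in RAW 264.7 macrophages loaded with triglyceride-rich emulsion particles: *Abcc1*, *Abcc3*, *Abcc4*, *Abcc5*, *Abcb1a*, *Abcb1b* and *Abcg2*. They are 7 of the 54432 genes of the deposited table, found by matching gene symbols to the Ensembl identifiers, and 6 of them were among the 12637 genes that passed a filter of more than 10 counts in at least 3 libraries. The set was chosen on the measured levels of *Abcc1*, which rose strongly after both kinds of particle. Its levels against control cells are therefore given as a description. Calls of members in those contrasts are counted below, but nothing is read from them. The comparison of the particles with each other was not itself used in the choice and was tested. For *Abcc1*, being chosen for a strong rise after both particles left less room for a difference between them.

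The study performed RNAseq on 9 libraries of RAW 264.7 cells, a mouse macrophage-like tumour line grown in medium with fetal bovine serum, and asked how macrophages respond to particles that imitate triglyceride-rich lipoproteins. Control cells (CTRL) were left untreated. The other cells received 1 mM of VLDL-sized emulsion particles (VLDLsep) or 1 mM of chylomicron-sized emulsion particles (CHYLsep) for 6 hours, with 3 libraries in each of the 3 groups. These doses are those of the sample labels, but another description in the study gives a lower dose for the CHYL-sized particles, so equal doses are not certain in the comparison of the particles. The particles were artificial, with casein as emulsifier, no particle-free emulsion is among the groups, and samples of a condition from the same experiment were pooled, so each library stands for 1 pool and the p-values measure the spread between these pools.

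ATP-binding cassette (ABC) transporters bind and split ATP on the inner face of a membrane and use the energy to move a substrate across it. The ABCC proteins, also called multidrug resistance-associated proteins, export organic anions, among them glutathione, glucuronide and sulfate conjugates and leukotriene C4. P-glycoprotein, which mice make from *Abcb1a* and *Abcb1b*, and the breast cancer resistance protein Abcg2 export many hydrophobic drugs, and Abcg2 also exports urate and porphyrins.

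The part of the coding sequence that all 7 genes have in common is shown first. It encodes the Walker A loop, the glycine-rich turn that holds the phosphates of ATP. The search was for glycine, any residues, glycine, any residue, glycine, lysine and serine or threonine. The pattern was found at 2 places in each of 6 of the proteins and at 1 place in Abcg2, which works as a pair of identical chains. The proteins are 1528 (Abcc1), 1523 (Abcc3), 1325 (Abcc4), 1436 (Abcc5), 1276 (Abcb1a), 1276 (Abcb1b) and 657 (Abcg2) residues long in the longest coding transcript of the GENCODE annotation of GRCm38. In the following stretches, the coding strand of the loop nearest the amino terminus is given 5′ to 3′ and capitals mark the 24 bases of the loop itself.
*Abcc1*, chr16:14443382-14443423, plus strand: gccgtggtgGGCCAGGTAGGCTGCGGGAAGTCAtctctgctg
*Abcc3*, chr11:94363748-94363789, minus strand: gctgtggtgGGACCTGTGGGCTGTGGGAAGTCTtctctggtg
*Abcc4*, chr14:118615311-118616395, minus strand, across an intron: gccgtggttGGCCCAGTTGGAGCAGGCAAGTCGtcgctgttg
*Abcc5*, chr16:20389387-20389428, minus strand: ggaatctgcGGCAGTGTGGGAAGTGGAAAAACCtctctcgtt
*Abcb1a*, chr5:8702198-8702239, plus strand: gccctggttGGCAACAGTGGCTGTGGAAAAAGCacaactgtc
*Abcb1b*, chr5:8824518-8824559, plus strand: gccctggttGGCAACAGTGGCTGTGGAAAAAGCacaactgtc
*Abcg2*, chr6:58663639-58664450, plus strand, across an intron: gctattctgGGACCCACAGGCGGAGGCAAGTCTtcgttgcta
*Abcb1a* and *Abcb1b* had 0 differing bases in these 42 bases, and the coding sequences of this gene pair matched at 88.0% of 3819 aligned bases. Of the 31-base words of the *Abcb1b* transcript, 27.0% also occurred in other genes, most of them in *Abcb1a*, whereas the share was 0 for *Abcc1*, *Abcc3*, *Abcc4* and *Abcc5* and 0.193% for *Abcg2*. Of the words of the *Abcb1a* transcript, 24.8% also occurred in other genes. Reads from *Abcb1a* and *Abcb1b* that lie wholly within shared stretches could thus not be told apart, whereas most words of each transcript were not shared. The next lines give 60 bases of the coding exons in which the pair differed most, with the 25 differing bases in capitals.
*Abcb1a*, chr5:8714924-8714983, plus strand: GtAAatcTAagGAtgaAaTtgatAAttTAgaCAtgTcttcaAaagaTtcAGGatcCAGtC
*Abcb1b*, chr5:8827363-8827422, plus strand: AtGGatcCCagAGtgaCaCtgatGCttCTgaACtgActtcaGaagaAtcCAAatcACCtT

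Depth was nearly equal across libraries, with totals of 22393893 to 22856792 estimated counts. All 8 macrophage markers on a list passed the filter, with a summed level of 6109 to 6212 counts-per-million (cpm) in the control libraries, 5594 to 5820 in the VLDL-sized libraries and 5734 to 5954 in the CHYL-sized libraries. The markers of T cells, B cells and fibroblasts summed to at most 0.300, 0.171 and 0.273 cpm in any library, those of endothelial cells to at most 1.80 cpm, and the defining markers of epithelial cells (4 of 4) and hepatocytes (2 of 2) were at 0. Of the macrophage markers, 1 was higher and 5 were lower with VLDL-sized particles, and 0 were higher and 2 were lower with CHYL-sized particles, the largest fall being that of *Fcgr1*, an Fc receptor (-0.83 and -0.68 on the log2 scale, limma adjusted p = 8.0e-05 and 4.4e-04). Over all 12637 genes, 35.6% were called with VLDL-sized and 25.7% with CHYL-sized particles (limma adjusted p under 0.05, either direction). The part of the shifts of these markers in the results below was not tested. Replicate 3 of each group stood apart from replicates 1 and 2: the chi-square statistic per gene was 3.38 to 5.02 between replicates 1 and 2 of a group and 11.9 to 15.1 between replicate 3 and either of them. The levels below are cpm of the estimated counts after TMM scaling (trimmed mean of M-values), with the mean ± SD of 3 libraries, and the fold changes come from a limma model of all 9 libraries. In such bulk RNA a change per cell and a change in the make-up of the culture cannot be told apart.

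*Abcc1* (ENSMUSG00000023088, chr16:14361558-14475737, plus strand) encodes the multidrug resistance-associated protein that exports glutathione conjugates, oxidized glutathione and leukotriene C4. It was listed at 98.8, 105 and 116 cpm in the control libraries, at 357, 381 and 412 cpm with VLDL-sized particles and at 352, 319 and 374 cpm with CHYL-sized particles. Every treated library lay above every control library, with 319 cpm as the lowest treated value and 116 cpm as the highest control value. The means were 107 ± 8.91, 383 ± 27.7 and 348 ± 27.4 cpm (SD, n = 3). The log2 fold change against control was 1.85 (SE 0.080, 95% confidence interval 1.67 to 2.02) for VLDL-sized and 1.71 (SE 0.080, interval 1.53 to 1.89) for CHYL-sized particles, which are 3.6-fold and 3.27-fold.

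*Abcc5* (ENSMUSG00000022822, chr16:20331303-20426394, minus strand), whose product exports cyclic nucleotides and nucleotide analogues, followed the same pattern at a lower level. The control libraries held 16.9, 17.3 and 18.6 cpm, the VLDL-sized libraries 54.7, 50.9 and 51.1 cpm, and the CHYL-sized libraries 48.2, 44.8 and 47.9 cpm. The control libraries were again the lowest of the 9, and each VLDL-sized library was above each CHYL-sized library. The means were 17.6 ± 0.928, 52.2 ± 2.16 and 47.0 ± 1.88 cpm, with log2 fold changes of 1.57 (SE 0.067) and 1.42 (SE 0.068) for VLDL-sized and CHYL-sized particles, or 2.96-fold and 2.67-fold.

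*Abcc4* (ENSMUSG00000032849, chr14:118482692-118706219, minus strand) encodes an exporter of cyclic AMP, prostaglandins and conjugated steroids. Its levels were 44.0, 43.4 and 46.1 cpm in control cells, 80.0, 83.2 and 90.3 cpm with VLDL-sized particles and 76.9, 74.3 and 83.9 cpm with CHYL-sized particles. The treated libraries did not overlap the control libraries, which lay between 43.4 and 46.1 cpm. The log2 fold change was 0.92 (SE 0.066, interval 0.78 to 1.07) for VLDL-sized and 0.81 (SE 0.066, interval 0.67 to 0.96) for CHYL-sized particles, or 1.90-fold and 1.76-fold.

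**Figure D1:**
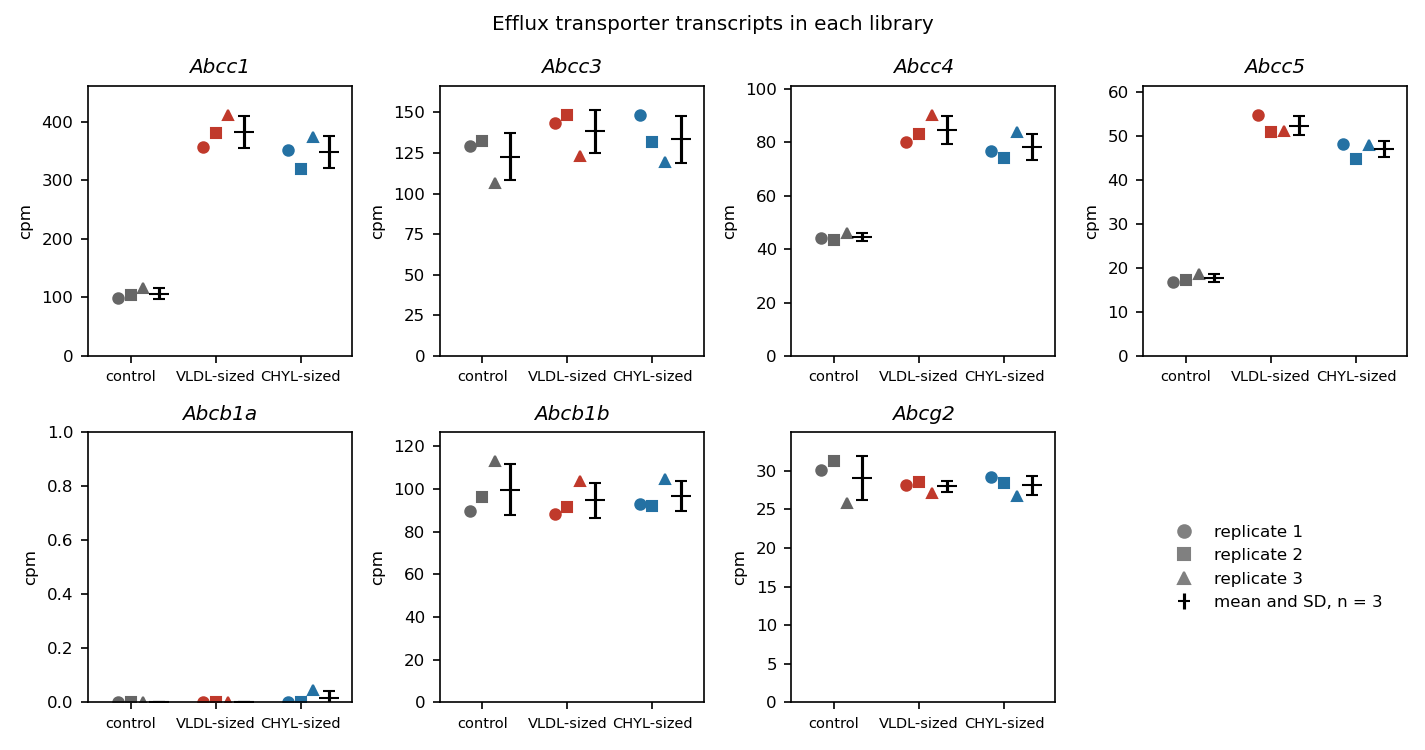
Level of each transporter in each library, in TMM-scaled counts-per-million (cpm, vertical axes starting at 0), for control, VLDL-sized and CHYL-sized groups, with a marker shape for each replicate number and bars for the mean and SD of 3 libraries. *Abcc1*, *Abcc4* and *Abcc5* have all 6 treated libraries above the 3 control libraries, *Abcc3*, *Abcb1b* and *Abcg2* overlap between groups, and *Abcb1a* lies at 0 in 8 of 9 libraries.

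*Abcc3* (ENSMUSG00000020865, chr11:94343295-94392997, minus strand), a pump for glucuronides and bile salts, had overlapping groups. The control libraries held 129, 132 and 106 cpm, those with VLDL-sized particles 143, 148 and 123 cpm and those with CHYL-sized particles 148, 132 and 120 cpm. Replicate 3 was the lowest library of each group. The log2 fold change was 0.17 (SE 0.10, interval -0.057 to 0.41) for VLDL-sized and 0.12 (SE 0.10, interval -0.11 to 0.35) for CHYL-sized particles. Without control replicate 3 these values were 0.074 and 0.020.

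*Abcb1b* (ENSMUSG00000028970, chr5:8798147-8866315, plus strand), which with *Abcb1a* encodes mouse P-glycoprotein, was expressed at 90.0, 96.4 and 113 cpm in control cells. The values were 88.5, 91.6 and 104 cpm with VLDL-sized particles and 93.0, 92.2 and 105 cpm with CHYL-sized particles. The groups overlapped throughout, and replicate 3 was the highest library of each. The log2 fold change was -0.07 (SE 0.092, interval -0.28 to 0.13) for VLDL-sized and -0.04 (SE 0.092, interval -0.24 to 0.16) for CHYL-sized particles.

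*Abcb1a* (ENSMUSG00000040584, chr5:8660077-8748575, plus strand), the gene next to it, had 0 counts in 8 of the 9 libraries and 0.986 estimated counts, or 0.045 cpm, in CHYL-sized replicate 3. It did not pass the filter. A count of 0 allows up to 3 counts, which is 0.126 to 0.137 cpm per library and covers counting error only. Per kilobase of transcript, *Abcb1b* was at least 750.4-fold above that limit for *Abcb1a* in each library. Since 1064 of the 4967 words of the *Abcb1a* transcript are shared with *Abcb1b*, estimated counts from those stretches could be assigned to either gene. Adding both genes into a single row left the log2 fold changes of *Abcb1b* against control at -0.07 and -0.04. With 0 counts of *Abcb1a* in 8 of the 9 libraries, that sum is nearly *Abcb1b* alone and could hardly move. It does not test how counts were split between the genes.

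*Abcg2* (ENSMUSG00000029802, chr6:58584523-58695676, plus strand), the breast cancer resistance protein, was listed at 30.1, 31.2 and 25.8 cpm in control cells, at 28.2, 28.6 and 27.2 cpm with VLDL-sized particles and at 29.2, 28.5 and 26.8 cpm with CHYL-sized particles. All treated values lay within the range of the control values. The log2 fold change was -0.05 (SE 0.078, interval -0.22 to 0.12) for VLDL-sized and -0.04 (SE 0.078, interval -0.21 to 0.13) for CHYL-sized particles.

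**Figure D2:**
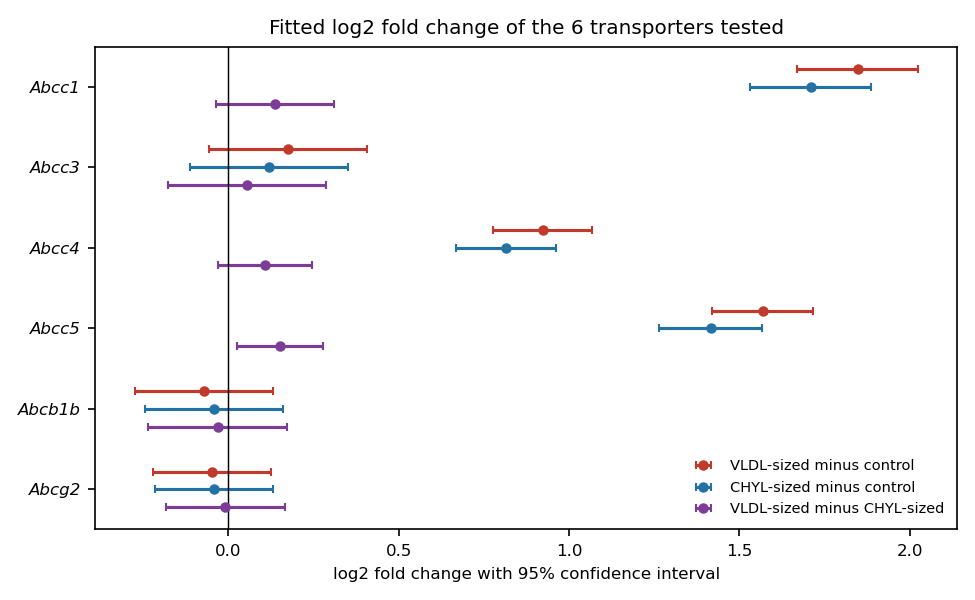
Fitted log2 fold change of the 6 transporters that passed the filter (horizontal axis, points with 95% confidence intervals) for VLDL-sized minus control, CHYL-sized minus control and VLDL-sized minus CHYL-sized. *Abcc1*, *Abcc5* and *Abcc4* lie between 0.81 and 1.85 against control, and the intervals of *Abcc3*, *Abcb1b* and *Abcg2* include 0 in all 3 comparisons.

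With VLDL-sized particles, 3 of the 6 members were called higher and 0 lower (limma adjusted p under 0.05), and with CHYL-sized particles the counts were also 3 and 0. Over all 12637 genes, 35.6% were called with VLDL-sized particles (17.8% higher, 17.9% lower) and 25.7% with CHYL-sized particles (12.7% higher, 13% lower). The groups did not overlap for 3 members in each comparison, against 47.4% and 41.7% of all genes. The choice of the set used these contrasts and both of them share the control libraries, so nothing is read from these counts. Without the libraries of replicate 3, 4 members were called with VLDL-sized particles, *Abcc3* (0.16) being the one added, and 3 with CHYL-sized particles.

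Levels were compared between genes per kilobase of the longest coding transcript. In control cells the order was *Abcc3* (24.5 ± 2.84 cpm per kilobase), *Abcb1b* (23.2 ± 2.76), *Abcc1* (15.7 ± 1.31), *Abcc4* (7.79 ± 0.246), *Abcg2* (5.08 ± 0.499), *Abcc5* (3.03 ± 0.160) and *Abcb1a* (0). Only *Abcc3* and *Abcb1b* overlapped among neighbours in this order. With VLDL-sized particles *Abcc1* moved to the top at 56.4 ± 4.07 cpm per kilobase, ahead of *Abcc3* (27.6 ± 2.64), *Abcb1b* (22 ± 1.89), *Abcc4* (14.8 ± 0.923), *Abcc5* (8.99 ± 0.372) and *Abcg2* (4.89 ± 0.130), and no neighbours overlapped. The order was the same with CHYL-sized particles, with *Abcc1* at 51.3 ± 4.04, *Abcc3* at 26.6 ± 2.88 and *Abcb1b* at 22.5 ± 1.64 cpm per kilobase, where *Abcc3* and *Abcb1b* overlapped. *Abcc5* thus stood below *Abcg2* in control cells and above it after either particle.

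The summed per-length level of the 7 transporters was 79.3 ± 1.83 cpm per kilobase in control cells, 135 ± 4.38 with VLDL-sized and 127 ± 5.78 with CHYL-sized particles. *Abcc1* made up 19.8% ± 1.32 of the sum in control cells, 41.9% ± 1.70 with VLDL-sized and 40.3% ± 1.55 with CHYL-sized particles. *Abcc3* went from 31% ± 3.93 to 20.6% ± 2.43 and 21.0% ± 2.40, and *Abcb1b* from 29.2% ± 3.00 to 16.3% ± 0.937 and 17.7% ± 0.994, at levels of their own that overlapped between groups. The share of *Abcc4* was 9.82% ± 0.316, 11% ± 0.361 and 10.8% ± 0.429. Among 52 ABC genes, *Abcc1* ranked 10th per kilobase in control cells, 3rd with VLDL-sized and 4th with CHYL-sized particles, whereas *Abcc3* ranked 5th, 6th and 6th.

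**Figure D3:**
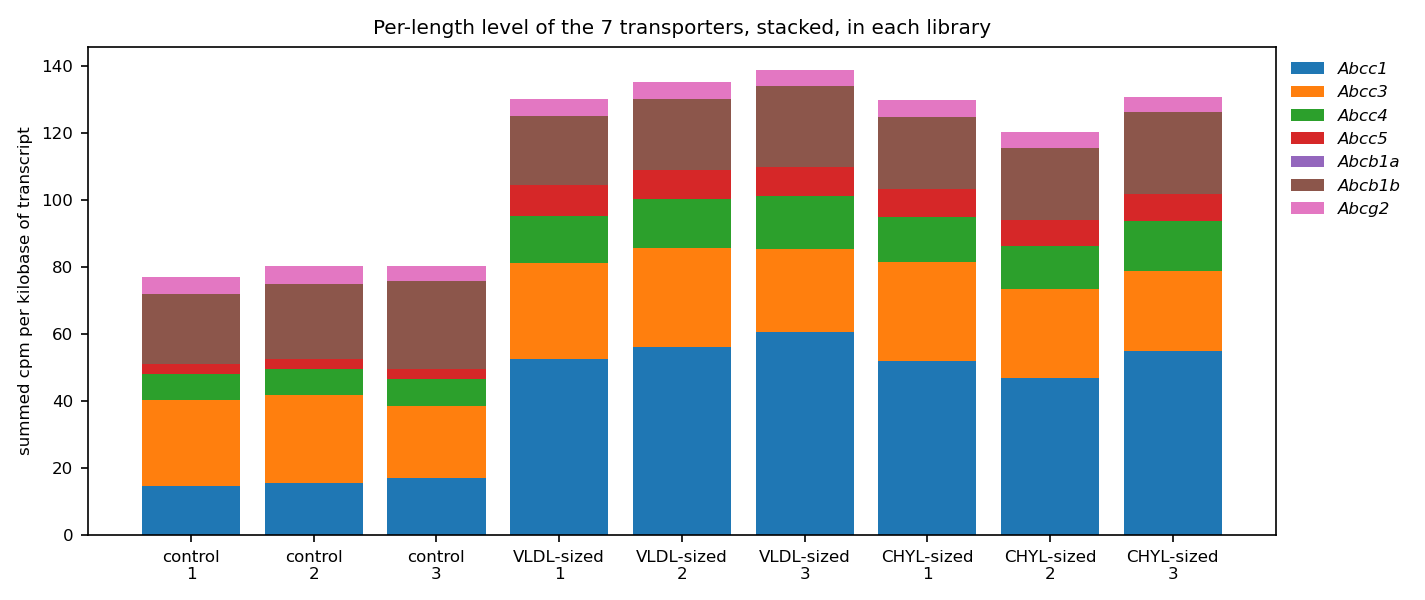
Stacked per-length level of the 7 transporters in each of the 9 libraries, in TMM-scaled cpm per kilobase of transcript (vertical axis from 0). The stacks reach about 79.3 in the control group, 135 in the VLDL-sized group and 127 in the CHYL-sized group on average, and the *Abcc1* block takes 19.8%, 41.9% and 40.3% of them.

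VLDL-sized and CHYL-sized particles were compared directly, in a contrast that the choice of genes did not itself use. By limma with Benjamini-Hochberg adjustment over all genes, 0 of the 6 members and 0% of all 12637 genes were called, and edgeR's quasi-likelihood test also called 0 members. The unadjusted p was under 0.05 for 1 member, against 6.43% of all genes (813 by limma, 812 by edgeR). That member was *Abcc5*, which was higher with VLDL-sized particles by 0.15 on the log2 scale (SE 0.057, interval 0.025 to 0.28, limma adjusted p = 0.70). Its 3 VLDL-sized libraries lay above its 3 CHYL-sized libraries, as was the case in 1 of the 6 members and, in either direction, in 11.3% of all genes. For *Abcc1* the difference was 0.14 (interval -0.036 to 0.31, limma adjusted p = 0.82) and for *Abcc4* 0.11 (interval -0.030 to 0.25, adjusted p = 0.82). The intervals were -0.18 to 0.29 for *Abcc3*, -0.24 to 0.17 for *Abcb1b* and -0.18 to 0.17 for *Abcg2*, with limma adjusted p of 0.98, 0.99 and 0.99. Over all genes, DESeq2 called 24 genes in this comparison and limma called 257 without the libraries of replicate 3, with 0 members among those called in that last fit.

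Within groups, the transporters varied with the replicate number in opposite ways. Replicate 3 lay below its group mean for *Abcc3* by 0.15 to 0.20 on the log2 scale in all 3 groups and for *Abcg2* by 0.042 to 0.16, and above it for *Abcb1b* by 0.12 to 0.19, for *Abcc1* by 0.10 to 0.13 and for *Abcc4* by 0.051 to 0.10. For *Abcc5* the deviation of replicate 3 ranged from -0.032 to 0.084. The values of *Abcc3* and *Abcb1b* were accordingly opposed over the 9 libraries (Pearson r = -0.87), while *Abcc1* moved with *Abcc4* (r = 0.996) and *Abcc5* (r = 0.995). These correlations run over 9 libraries that share 3 groups and the replicate 3 pattern, and they are given as a description.

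**Figure D4:**
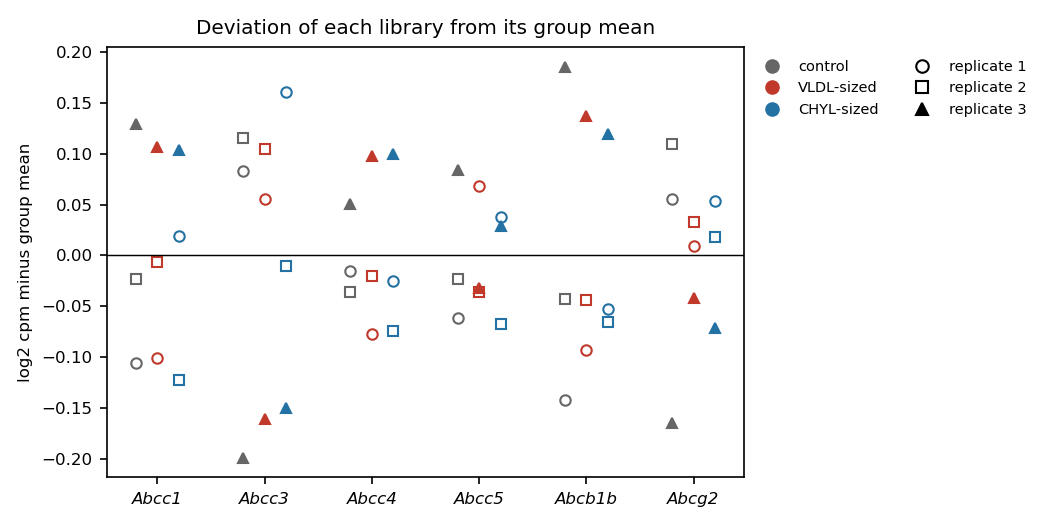
Deviation of each library from its group mean (vertical axis, log2 cpm) for the 6 transporters tested, by group (colour) and replicate number (shape, replicate 3 filled). Replicate 3 is below 0 for *Abcc3* and *Abcg2* and above 0 for *Abcb1b*, *Abcc1* and *Abcc4* in all 3 groups.

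The genes whose log2 levels over the 9 libraries were most like those of each transporter were named by Pearson r among all genes tested. For *Abcc1* these were *Unc5b*, a netrin receptor (r = 0.999; 1.41, 9.27 and 7.87 cpm in control, VLDL-sized and CHYL-sized cells), *Prdx1*, a peroxiredoxin (r = 0.999; 982, 3875 and 3465 cpm), and *Lipa*, the lysosomal acid lipase (r = 0.998; 954, 1992 and 1890 cpm). For *Abcc5* they were *Tbcel*, *Ppfibp2* and *Lipa*, all at r = 0.998, and for *Abcc4* they were *Me1*, the cytosolic malic enzyme, *Srxn1*, sulfiredoxin, and *Lrrfip2*, all at r = 0.998. For *Abcc3*, whose groups overlapped, they were *Sptbn1* (r = 0.996), *Wwc2* (r = 0.986) and *Zfp638* (r = 0.985). *Abcb1b* was closest to *Plek* (r = 0.969), *Cd52* (r = 0.968) and *H3f3b* (r = 0.967), and *Abcg2* to *Tmem9* (r = 0.977), *Ahr* (r = 0.956) and *Arhgap12* (r = 0.953). The levels of the genes nearest to these last 3 transporters lay close together in the 3 groups, such as *Plek* at 435, 398 and 408 cpm. *Ahr* had only 28 to 65 counts per library. All of these genes were picked as the closest among all genes tested. The libraries share the group changes and the replicate 3 pattern, so no common control is read from the correlations.

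RefSeq promoter windows of GRCm38.p6 (250 bases before to 50 bases after a start) were at hand for *Abcc4* (2 windows), *Abcc5* (1), *Abcb1a* (1), *Abcb1b* (1) and *Abcg2* (3). *Abcc1* and *Abcc3* had no window. For *Abcc4* (1 of its 2 windows) and *Abcc5*, which were higher after both particles as *Abcc1* was, the sequence is shown. Each is given as the 250 bases before the start, 5′ to 3′ on the strand of the gene. Capitals mark a match to TGACNNNGC, the core of the antioxidant response element, searched on both strands.
*Abcc4*, chr14:118706220-118706469, minus strand: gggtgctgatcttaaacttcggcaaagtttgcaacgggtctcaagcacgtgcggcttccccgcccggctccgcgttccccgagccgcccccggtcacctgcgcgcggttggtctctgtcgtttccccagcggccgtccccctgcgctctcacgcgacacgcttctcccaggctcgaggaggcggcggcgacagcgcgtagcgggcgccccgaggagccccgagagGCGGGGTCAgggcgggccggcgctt
*Abcc5*, chr16:20426395-20426644, minus strand: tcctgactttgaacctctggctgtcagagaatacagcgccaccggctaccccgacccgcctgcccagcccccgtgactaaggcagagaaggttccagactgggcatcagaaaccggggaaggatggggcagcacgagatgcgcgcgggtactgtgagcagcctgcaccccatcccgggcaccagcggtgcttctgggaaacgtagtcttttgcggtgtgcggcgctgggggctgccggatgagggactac
The match in *Abcc4* reads GCGGGGTCA on the strand shown and begins 25 bases before the start. The other *Abcc4* window held TGACTCTGC, beginning 23 bases before its start, and the *Abcb1a* window held GCGGAGTCA after its start. The starts of these windows lie 29274 bases (*Abcc4*) and 92986 bases (*Abcb1a*) from the start of the longest coding transcript. The windows of *Abcc5*, *Abcb1b* and *Abcg2* held no match. Of all 32851 RefSeq windows of this length, 12.4% held this core. The AP-1 motif TGANTCA, which can overlap that core, was in 7.81% of all windows and in none of these, and GCGTG, the core of the xenobiotic response element, was in 32.4% of all windows, at 2 places in the *Abcc4* window shown and at 1 place in a window of *Abcg2*. The *Abcg2* window with GCGTG has its start 43875 bases from that of the longest coding transcript. Matches are letters in a window and carry no statement on binding.

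Beside the 7 transporters, 45 other ABC genes were examined, of which 28 passed the filter. With VLDL-sized particles 8 were higher, 8 were lower and 12 were not called, and with CHYL-sized particles 4 were higher, 6 were lower and 18 were not called (limma, same threshold). The shares over all genes tested were 17.8% higher and 17.9% lower with VLDL-sized particles, and 12.7% and 13% with CHYL-sized particles. The median log2 fold change of the 28 genes was 0.03 and 0.01, against -2.8e-04 and 0.0013 for all genes tested, while the 6 members had medians of 0.55 and 0.47, which the choice of the set helped to fix.

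Of the 7 remaining ABCC genes, 2 passed the filter. *Abcc2*, a conjugate pump of the liver canaliculus, had 10, 8 and 6 counts in the control libraries, 34, 38 and 29 with VLDL-sized and 26, 26 and 33 with CHYL-sized particles. All treated libraries were higher than the control libraries, and the gene passed the filter only through them. Its mean level was 0.338 ± 0.0817, 1.53 ± 0.195 and 1.28 ± 0.199 cpm in control, VLDL-sized and CHYL-sized cells, and no test of it is used. Without it, 7 and 3 of the other ABC genes were called higher. *Abcc10* fell by 0.38 with VLDL-sized particles (limma adjusted p = 0.035) and was at -0.24 with CHYL-sized particles (adjusted p = 0.18).

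Among the other ABCB genes on the list, which does not hold *Abcb5*, 8 of 9 passed the filter. Of these, 2 were higher and 3 lower with VLDL-sized and 2 higher and 2 lower with CHYL-sized particles. *Abcb6*, a porphyrin transporter, rose from 66.5 ± 4.13 to 117 ± 8.05 and 110 ± 10.7 cpm (log2 fold change 0.81 and 0.72, limma adjusted p = 3.2e-05 and 1.2e-04). *Abcb4*, the phosphatidylcholine floppase and a close relative of *Abcb1a* and *Abcb1b*, rose from 17.9 ± 1.35 to 26.9 ± 2.76 and 23.6 ± 2.74 cpm (0.59 and 0.39, adjusted p = 0.0017 and 0.024). The mitochondrial transporter *Abcb8* fell by 0.53 and 0.48, and *Tap1*, which carries peptides for MHC class I, fell by 0.44 and 0.48. *Abcb10* fell by 0.40 with VLDL-sized particles (limma adjusted p = 0.0091) and was at -0.26 with CHYL-sized particles (adjusted p = 0.071).

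The cholesterol exporters *Abcg1* and *Abca1* fell after both particles. Of the 5 other ABCG genes 2 passed the filter, and *Abcg1* fell from 194 ± 30.2 to 102 ± 15.9 and 104 ± 7.67 cpm (log2 fold change -0.93 and -0.90, limma adjusted p = 2.6e-04 and 5.3e-04). *Abca1* fell from 64.9 ± 13.6 to 25.6 ± 5.53 and 27.4 ± 3.38 cpm (-1.34 and -1.23, adjusted p = 1.7e-04 and 4.4e-04). Of the 16 ABCA genes 8 passed the filter, with 2 higher and 1 lower with VLDL-sized and 1 higher and 1 lower with CHYL-sized particles. *Abca8b* rose from 4.63 ± 0.253 to 18.4 ± 2.17 and 15.4 ± 1.87 cpm (1.98 and 1.73, adjusted p = 4.2e-06 and 2.0e-05). *Abca5* rose by 0.63 with VLDL-sized particles (adjusted p = 0.0024) and was at 0.24 with CHYL-sized particles (adjusted p = 0.21).

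Of the 8 ABCD, ABCE and ABCF genes, all of which passed the filter, 3 were higher and 2 lower with VLDL-sized particles and 0 were higher and 2 lower with CHYL-sized particles. *Abcd2*, a peroxisomal transporter of very-long-chain fatty acids, fell from 5.56 ± 0.783 to 2.42 ± 0.481 and 3.44 ± 0.651 cpm (-1.20 and -0.70, limma adjusted p = 0.0010 and 0.019). The genes that were higher with VLDL-sized particles were *Abcd4* (0.50), *Abcf3* (0.26) and *Abce1* (0.21), which were at 0.30, 0.17 and 0.17 with CHYL-sized particles and not called there (adjusted p = 0.075, 0.085 and 0.067).

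**Figure D5:**
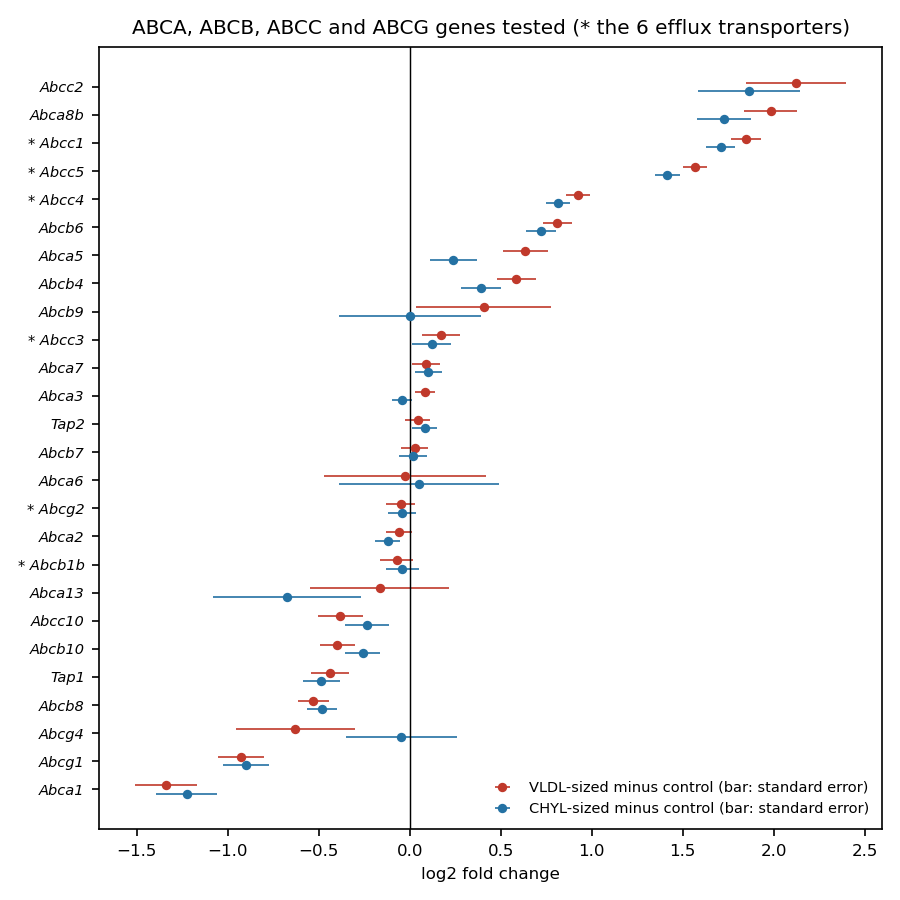
Log2 fold change against control (horizontal axis, bars of 1 standard error) of the 26 ABCA, ABCB, ABCC and ABCG genes that passed the filter, ordered by the value for VLDL-sized particles, with the 6 efflux transporters starred. *Abcc1* (1.85), *Abcc5* (1.57) and *Abcc4* (0.92) stand near the top with *Abcc2* (2.12, past the filter only through the treated libraries) and *Abca8b* (1.98), and *Abca1* (-1.34) and *Abcg1* (-0.93) are at the bottom.

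Enzymes that make conjugates of the kinds that ABCC proteins export, or their precursors, were followed as a list. It held 41 genes for glutathione, glucuronide, sulfate and leukotriene C4 conjugation. No conjugate was measured, and these are not the only substrates of the pumps. Of the 23 that passed the filter, 11 were higher, 1 was lower and 11 were not called with either particle, and the median log2 fold change was 0.33 with VLDL-sized and 0.22 with CHYL-sized particles. Of these, 3 (*Gsta2*, *Gsta3* and *Mgst2*) passed the filter only through the treated libraries, and without them 8 were higher with either particle and the medians were 0.18 and 0.093. Over all genes tested, 17.8% were higher and 17.9% lower with VLDL-sized particles, and 12.7% and 13% with CHYL-sized particles. This list and those of factors and solute carriers below were chosen with earlier results of these data known, so their counts are a description. *Gclm* and *Gclc*, the subunits of the enzyme that limits glutathione synthesis, rose from 154 ± 8.83 to 1373 ± 30.7 and 1337 ± 55.7 cpm (3.15 and 3.11, limma adjusted p = 1.7e-10 and 2.0e-10) and from 141 ± 1.71 to 438 ± 16.3 and 420 ± 8.91 cpm (1.64 and 1.58). The UDP-glucuronosyltransferase *Ugt1a6a* rose by 1.74 and 1.80 on the log2 scale, and since its family members share sequence, reads could be split among them. The microsomal glutathione transferase *Mgst1* rose by 1.5 and 1.44 (adjusted p = 0.0019 and 0.0037). The glutathione transferase *Gsta3* had 2 to 5 counts in the control libraries and 228 to 304 in the treated libraries, and *Gsta2* had 0 to 1 and 13.6 to 51.9 estimated counts. *Papss1*, which makes the sulfate donor, fell by 0.28 and 0.22 (adjusted p = 0.0044 and 0.019). *Ltc4s*, the leukotriene C4 synthase, was at -0.20 and -0.15 (adjusted p = 0.69 and 0.79).

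A list of 18 factors known to control efflux transporter genes had 16 members past the filter, of which 7 were higher and 2 lower with VLDL-sized and 5 higher and 1 lower with CHYL-sized particles, at medians of 0.02 and 0.10. *Bach1*, a repressor at antioxidant response elements, rose from 56.0 ± 5.85 to 157 ± 17.1 and 136 ± 25.8 cpm (1.49 and 1.27, limma adjusted p = 1.5e-05 and 8.2e-05), and the small MAF proteins *Maff* (1.47 and 1.15) and *Mafg* (0.54 and 0.58) rose after both particles. The other small MAF on the list, *Mafk*, rose with VLDL-sized particles (0.73, adjusted p = 0.0041) and was not called with CHYL-sized particles (0.44, adjusted p = 0.068). *Nfe2l2*, the activator NRF2, was at 284 ± 55.3, 254 ± 11.7 and 259 ± 21.0 cpm and was not called (adjusted p = 0.37 and 0.51). *Ahr*, the aryl hydrocarbon receptor, was at 2.22, 1.99 and 1.91 cpm (adjusted p = 0.88 and 0.79). *Ahrr*, its repressor, fell by 0.85 with VLDL-sized particles (adjusted p = 0.011) and was at -0.49 with CHYL-sized particles (adjusted p = 0.10). *Trp53*, the gene of p53, fell by 0.39 and 0.27 (adjusted p = 0.0042 and 0.037).

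Solute carriers that export or exchange drugs and organic ions were mostly below the filter, which 7 of 21 passed. With each particle 1 of them was higher and 1 lower, at medians of -0.11 and -0.18. *Slc22a4*, the ergothioneine and carnitine transporter, rose from 2.48 ± 0.264 to 17.9 ± 1.85 and 15.9 ± 1.47 cpm (2.84 and 2.67, limma adjusted p = 7.9e-07 and 1.8e-06). The gene that fell was *Slc29a1*, an equilibrative nucleoside transporter, with VLDL-sized particles (-0.28, adjusted p = 0.011) and *Slc15a3*, a lysosomal peptide and histidine transporter, with CHYL-sized particles (-0.18, adjusted p = 0.023).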

How the data were processed

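RNAseq was measured in 9 libraries of RAW 264.7 cells. The values that the authors deposited are estimated counts, quantified with Salmon 0.14.1 (per the submitters' processing notes) on GENCODE transcripts of GRCm38.p6 and collapsed per gene by tximport. The methods describe scaled counts. Because 58.3% of the values above 10 were whole (within 0.0005), the table was taken as unscaled.

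Symbols were matched for 54346 of 54432 genes. The filter (over 10 counts, 3 or more libraries) kept 12637 genes, which were TMM-normalized in edgeR 4.0.16 and tested with limma 3.58.1 and voom weights in R 4.3.3. A single model held all libraries, without a replicate block, and p-values were adjusted by Benjamini-Hochberg. Coordinates, transcript lengths and coding sequences came from GENCODE M21, promoters from RefSeq. The scripts were tested on simulated data. Members and lists were chosen with earlier results of these data known. Named genes were the members, the 3 genes most similar to each, and from each list up to 6 called genes with the largest changes, plus those that fell most. *Nfe2l2*, *Ahr*, *Ltc4s* and *Fcgr1* are not covered by it and were picked with their values in view. A gene of the ABC lists is not reported here by name.

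Alternatives were edgeR's quasi-likelihood test and DESeq2 1.42.0 on rounded counts, library size only, no filter, a filter of 50 counts, *Abcb1a* and *Abcb1b* summed, a replicate block, each library left out, and all libraries of replicate 3 left out. No source says what a replicate number shares, and same-numbered libraries deviated together at correlations of -6.4e-04 to 0.28, not all over 0.1.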

Additional observations from a re-analysis of the deposited data

How the results depend on the processing

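The counts of called members and of called other ABC genes stayed within 1.5 times the reported counts under each alternative run for them. For the members against control, the choice of the set partly fixed these counts, and nothing is read from their stability. Summing *Abcb1a* and *Abcb1b* was run only for the counts of members and for *Abcb1b*. As a description, since the set was chosen on these contrasts, the values of *Abcc1*, *Abcc4* and *Abcc5* against control ranged between 1.75 and 1.91, 0.83 and 0.96, and 1.47 and 1.63 on the log2 scale with VLDL-sized and between 1.63 and 1.77, 0.73 and 0.85, and 1.34 and 1.46 with CHYL-sized particles. Scaling by library size only moved the median of all genes to -0.094 and -0.079 and *Abcc3* to 0.081 and 0.040. With the replicate number as a block, 4 members were called with VLDL-sized particles, *Abcc3* (0.17) being the one added, and 3 with CHYL-sized particles, and the other ABC genes called were 18 and 14 in place of 16 and 10. The block raised the calls between the particles from 0 to 147 genes, DESeq2 gave 24 and leaving out replicate 3 of every group 257, with 0 members in each. Same-numbered libraries did not all correlate best with each other, either between the control and CHYL-sized groups or between the VLDL-sized and CHYL-sized groups. Between the particles, the correlation was -6.4e-04 for the libraries of replicate 1. It was 0.138 between VLDL-sized replicate 1 and CHYL-sized replicate 2. For *Abcc3* against control, leaving out 1 library at a time gave 0.074 to 0.25 with VLDL-sized and 0.020 to 0.19 with CHYL-sized particles. It turned the direction of other small, uncalled differences, whose ranges were -0.020 to 0.14 for *Abcc3* and -0.10 to 0.028 for *Abcb1b* between the particles, -0.14 to 0.020 and -0.11 to 0.051 for *Abcb1b* and -0.13 to 0.0047 and -0.12 to 0.013 for *Abcg2* against control with VLDL-sized and CHYL-sized particles, and -0.044 to 0.020 for *Abcg2* between the particles. *Abcb1b* turned positive against control without control replicate 3, and *Abcg2* without control replicate 2. Depth limits only *Abcb1a*, where 0 counts allow up to 3.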
